A study of Homo sapiens with 6 samples.

Results

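The genes described here are 36 enzymes, transporters and regulators of glycolysis, of glucose entry and of the pentose phosphate pathway, chosen by gene symbol from the 26255 symbols in the table. They were compared between 2 groups of MDA-MB-231 cells, a human triple-negative breast cancer line with a mesenchymal character. The shNT group (3 libraries) carried a lentiviral control short hairpin RNA, and the shGPR81 group (3 libraries) carried a hairpin against the lactate receptor GPR81, the product of HCAR1. Both groups went through infection and puromycin selection, so neither is the parental line, and the labels do not say which of the 2 GPR81 hairpins of the study was sequenced or whether the libraries came from separate cultures. The p-values therefore measure the spread between these libraries only, which may be technical. Values are FPKM, fragments per kilobase of transcript scaled to library size, so levels of different genes can be set side by side.

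The libraries were of similar depth, with an estimated 11961444 to 12730455 reads each and relative depths from 1.0 to 1.071. The markers of the line were present in every library (VIM, CD44, EGFR, CAV1 and MSN), and ESR1, PGR and CDH1 were at 0 in all 6, while ERBB2 was at 10.6 to 12.6 FPKM and EPCAM at 5.2 to 6.86 FPKM. Of the markers of other cell types, CD3E, DCN and ADIPOQ were at 0 in all libraries. The summed leukocyte list was at 76.7 to 99.1 FPKM in shNT and 110 to 129 FPKM in shGPR81, almost all of it CD68, and the summed fibroblast list was at 0.94 to 1.18 and 0.503 to 0.732 FPKM. Their part in the results below was not tested. HCAR1 was at 0.968, 1.02 and 1.36 FPKM in shNT and at 0.978, 0.891 and 0.396 FPKM in shGPR81, which correspond to 37, 40 and 52 reads against 40, 36 and 16 reads. The log2 fold change was -0.57 (SE 0.31, 95% interval -1.30 to 0.15, limma adjusted p = 0.38), and the groups overlapped. The RNA of the targeted gene in these libraries thus does not by itself separate them, and the group names are those of the labels. The study reported reduced GPR81 by RT-qPCR and by western blot in both of its hairpin lines.

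Glycolysis turns glucose into pyruvate. Glucose enters through facilitative transporters and is trapped by hexokinases, phosphofructokinase commits it to breakdown, and lactate dehydrogenase interconverts pyruvate and lactate. The pentose phosphate pathway branches off after the hexokinase step and yields NADPH and ribose phosphate. Many tumour lines run glycolysis at a high rate in the presence of oxygen, and lactate that leaves the cell is the ligand of GPR81.

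Transcripts of the glycolytic route stayed within a narrow range of fold changes between shNT and shGPR81 cells, apart from 1 gene of the reverse direction. FBP1, the fructose bisphosphatase that undoes the phosphofructokinase reaction, rose 2.39-fold in shGPR81. No other member passed an adjusted p of 0.05 in limma, and the next lowest adjusted p was 0.0866 for PGD of the pentose phosphate pathway. Transcripts of HK2, PFKM, PFKL, PFKP and LDHA had mean levels in shGPR81 between 0.935 and 1.12 times those in shNT. They act at the steps of hexokinase, phosphofructokinase and lactate dehydrogenase. By western blot, the study reported less HK2, PFK1 and LDHA protein in shGPR81 cells, and RNA levels do not measure protein. In these bulk samples, fewer cells with a transcript and less of it per cell cannot be told apart.

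Of the 36 genes, 34 reached 0.1 FPKM in at least 3 of the 6 libraries and were tested, and 20 of them had a log2 fold change above 0 and 14 one below 0. Their median log2 fold change was 0.014, against 0.008 over the 14349 genes tested, of which 51.9% lay above 0. The members' median turned with single libraries, from -0.04 without shNT 1 (15 above and 19 below 0) to 0.08 without shNT 3 (25 above and 9 below). At an adjusted p under 0.05 together with a fold change above 1.5, 1 member was higher and 0 were lower in shGPR81, where 0.955% of all tested genes were higher and 1.59% were lower. At an adjusted p under 0.05 alone the members were the same count, 1 higher and 0 lower, beside 2.06% and 3.07% of all tested genes. At an unadjusted p under 0.05, 6 members passed. The share of all tested genes at that threshold was not counted, so nothing is drawn from this number. In 5 members (ALDOC, ENO3, LDHB, PGD and FBP1) every shGPR81 library lay above every shNT library and in 2 members (SLC2A3 and HK2) every one lay below, while 12.9% and 12.7% of all tested genes separated in those directions. For 29 of the 34 members the 95% confidence interval, which is not adjusted for the number of genes, lay within 0.585 of 0 on the log2 scale, the size of a 1.5-fold change. The intervals of ALDOC, ENO3, PKLR, LDHD and FBP1 reached beyond it.

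**Figure D1:**
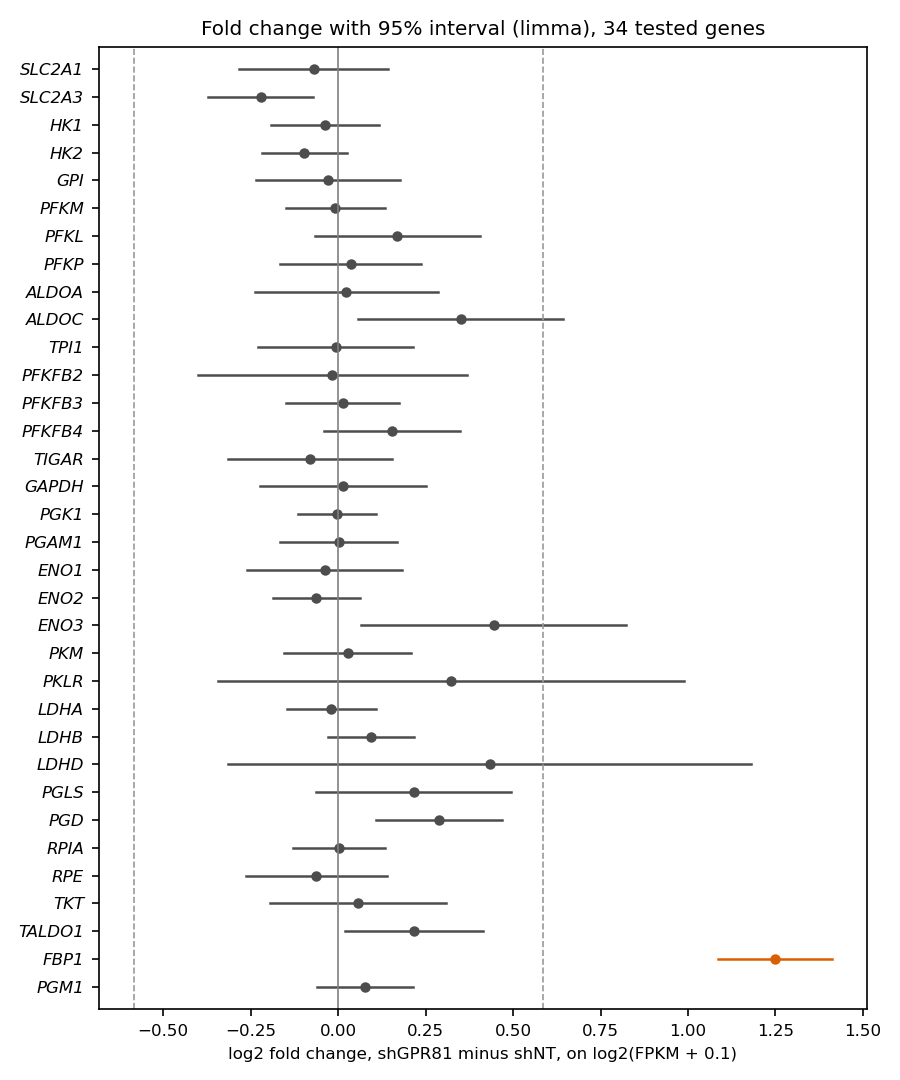
Log2 fold change of shGPR81 over shNT on log2(FPKM + 0.1) for the 34 tested genes, as points with 95% confidence intervals from limma, with dashed lines at a 1.5-fold change in either direction and genes in the order of the pathway. FBP1 at 1.25 is the only gene whose interval lies wholly outside the dashed lines.

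The mean over the 6 libraries was above 100 FPKM for 15 of the 36 genes, most of them enzymes of the common route, and it was below 1 FPKM for 4 genes (HKDC1, PFKFB1, PKLR and LDHD). GAPDH, at 3380, 3830 and 4280 FPKM in shNT and 3720, 3740 and 4100 FPKM in shGPR81, ranked 12 among all genes by mean FPKM. All 36 members together summed to 10510, 11780 and 12750 FPKM in shNT and to 11430, 11490 and 12490 FPKM in shGPR81. The symbol MIR6723 alone held 28.1% to 36.2% of each library's summed FPKM, which is a sum of values per kilobase and not a share of reads. As a share of all FPKM without MIR6723, the members made up 1.89% ± 0.134 in shNT and 1.89% ± 0.0808 in shGPR81 (SD, n = 3 each, exact permutation p = 1.0). The summed RNA of the pathway thus overlapped between the groups.

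**Figure D2:**
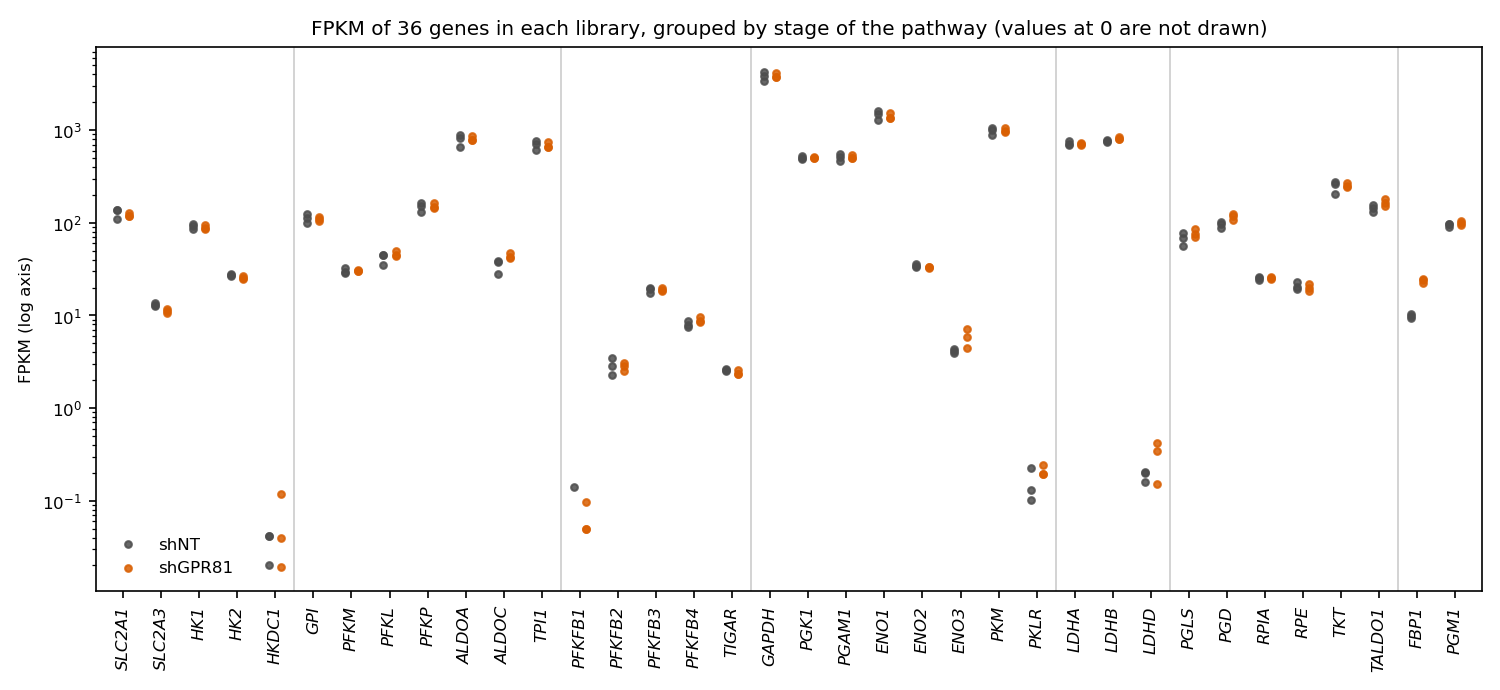
FPKM of the 36 genes on a log axis, 1 point per library, shNT in grey and shGPR81 in orange, with vertical lines between the stages of the pathway and values at 0 not drawn. The groups overlap at 29 of the 36 genes, and levels run from HKDC1 at 0.0194 to 0.118 FPKM to GAPDH at 3380 to 4280 FPKM; the widest gap is at FBP1.

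At glucose entry and phosphorylation, the 4 tested genes all had log2 fold changes below 0, from -0.22 to -0.04, and none passed; without shNT 3, HK1 was at 0.008. SLC2A1 (GLUT1), the main basal glucose carrier, was at 111, 137 and 139 FPKM in shNT and at 119, 119 and 129 FPKM in shGPR81, a log2 fold change of -0.07 (SE 0.09, limma adjusted p = 0.748). SLC2A3 (GLUT3), a carrier of higher affinity, was at 13.6, 13 and 12.6 FPKM in shNT and at 11.6, 11.2 and 10.7 FPKM in shGPR81. Here the groups did not overlap, and the log2 fold change was -0.22 (SE 0.06, 95% interval -0.37 to -0.07, limma adjusted p = 0.107). HK1, the housekeeping hexokinase, had 76.0% to 78.2% of the hexokinase FPKM and a log2 fold change of -0.04. HK2, the inducible hexokinase of many tumours, was at 27.0, 27.2 and 27.7 FPKM in shNT and at 25.6, 24.6 and 26.5 FPKM in shGPR81. All 3 shGPR81 libraries were below the lowest shNT library, by little: the log2 fold change was -0.10 (SE 0.05, 95% interval -0.22 to 0.02, limma adjusted p = 0.371). HKDC1, a hexokinase-like gene, rested on 2, 1 and 2 reads in shNT and on 1, 2 and 6 reads in shGPR81, too few to show a difference at this depth.

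In the upper stage, from glucose 6-phosphate to the triose phosphates, the 7 genes ran from -0.03 to 0.35 in log2 fold change and none passed. GPI, which makes fructose 6-phosphate, was at -0.03, and TPI1, which interconverts the trioses, was at -0.01. Phosphofructokinase is encoded by PFKM, PFKL and PFKP. PFKP, the platelet form, was the major one at 131, 151 and 163 FPKM in shNT and 148, 145 and 162 FPKM in shGPR81 (log2 fold change 0.04, 95% interval -0.17 to 0.24). PFKM, the muscle form, was at 29.1, 32.8 and 29.4 FPKM in shNT and 30.7, 30.1 and 29.9 FPKM in shGPR81 (-0.01, -0.15 to 0.14). PFKL, the liver form, was at 35.4, 44.5 and 44.7 FPKM in shNT and 44.1, 45.3 and 50.1 FPKM in shGPR81 (0.17, -0.07 to 0.40, and 0.06 without shNT 1). All 3 overlapped between the groups, and each interval held 0. Of the aldolases, which split fructose 1,6-bisphosphate, ALDOA was at 0.02 in log2 fold change. ALDOC, the brain form, was at 28.0, 37.8 and 38.5 FPKM in shNT and at 41.4, 43.0 and 47.6 FPKM in shGPR81, without overlap, and its log2 fold change was 0.35 (SE 0.12, 95% interval 0.06 to 0.64, limma adjusted p = 0.179). Without shNT 1, its lowest library, it was 0.20.

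FBP1 runs the phosphofructokinase step backwards in gluconeogenesis, and in GENCODE on GRCh37 it spans bases 97365415 to 97402531 of chromosome 9 (minus strand). It was at 9.45, 10.5 and 9.88 FPKM in shNT and at 22.4, 24.0 and 25.0 FPKM in shGPR81. The lowest shGPR81 library was above the highest shNT library by more than the whole spread within either group. The means were 9.94 ± 0.528 and 23.8 ± 1.32 FPKM (SD, n = 3 each), and the log2 fold change was 1.25 (SE 0.07, 95% interval 1.09 to 1.41, limma adjusted p = 0.000342). The exact permutation p was 0.1, the smallest that 3 against 3 libraries can give. FBP1 was called in all 6 fits that left out 1 library. Among the 8419 genes with both group means at 5 FPKM or more it had the rank 21 of log2 fold changes in the direction of shGPR81. Over all 14349 tested genes its rank was 90. Set against the summed phosphofructokinase genes, a ratio chosen after the values were seen, FBP1 was 4.84%, 4.59% and 4.17% of PFKM, PFKL and PFKP together in shNT and 10.1%, 10.9% and 10.3% in shGPR81. FBP1 was below each of the 3 forward genes in every library, though in shGPR81 it came near PFKM, the lowest of them, at 29.9 to 30.7 FPKM. PGM1, which links glycolysis to glycogen, was at 89.4, 96.0 and 98.3 FPKM in shNT and 95.2, 98.7 and 105 FPKM in shGPR81 (log2 fold change 0.08, limma adjusted p = 0.555).

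**Figure D3:**
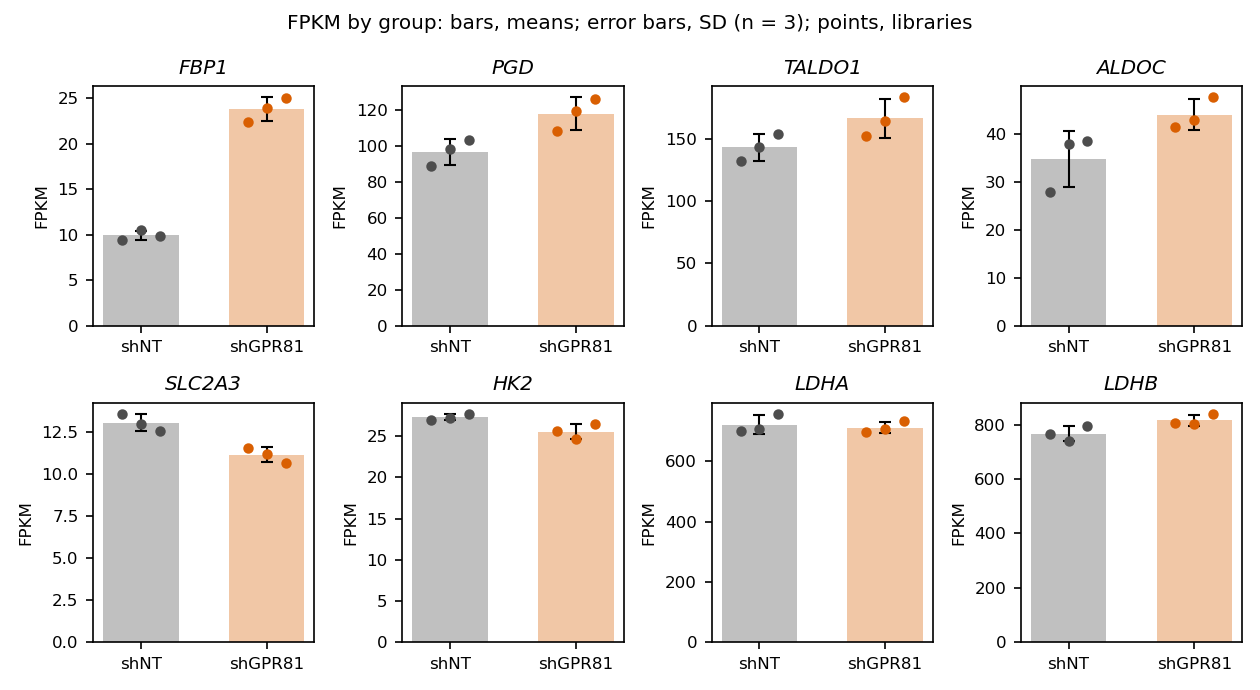
FPKM of FBP1, PGD, TALDO1, ALDOC, SLC2A3, HK2, LDHA and LDHB, with bars for group means, error bars for the SD (n = 3) and points for libraries; each axis starts at 0. FBP1 at 9.94 against 23.8 FPKM is the only gene of the 8 with a change of more than 1.5-fold, and LDHA at 721 against 711 FPKM overlaps.

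The promoter windows of 3 members are shown because they stand for the 3 outcomes, FBP1 for the member that rose, PGD for the next lowest adjusted p, and LDHA for an abundant gene with no called difference. Each is the RefSeq (GRCh38.p14) stretch from 250 bases before to 50 bases after an annotated start, 5′ to 3′ on the gene's strand. Capitals mark ACGTG or its reverse complement CACGT, 1 form of the core bound by hypoxia-inducible factors and, as CACGTG, bound by MYC. They also mark TGACGTCA, the cAMP response element. Where CACGTG occurs, both strands match and are counted. The other form of the core, GCGTG, was not searched or counted, though it occurs on 1 strand or the other in all 3 windows. FBP1 is chr9:94639469-94639768 (minus strand), PGD chr1:10398814-10399113 (plus strand), and LDHA chr11:18394313-18394612 (plus strand), 1 of 2 windows of that gene.
FBP1: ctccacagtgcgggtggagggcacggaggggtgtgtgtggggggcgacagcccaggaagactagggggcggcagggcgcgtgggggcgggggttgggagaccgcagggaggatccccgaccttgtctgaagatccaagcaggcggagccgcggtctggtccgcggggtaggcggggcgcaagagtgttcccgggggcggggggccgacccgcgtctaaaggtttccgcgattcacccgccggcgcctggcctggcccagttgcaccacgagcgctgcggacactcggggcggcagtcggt
PGD: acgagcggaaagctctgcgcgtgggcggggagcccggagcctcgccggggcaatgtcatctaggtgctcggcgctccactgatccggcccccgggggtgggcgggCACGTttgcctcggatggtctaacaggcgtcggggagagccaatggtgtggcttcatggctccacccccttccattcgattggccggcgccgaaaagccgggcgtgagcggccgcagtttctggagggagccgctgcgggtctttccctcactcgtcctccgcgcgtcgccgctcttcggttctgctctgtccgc
LDHA: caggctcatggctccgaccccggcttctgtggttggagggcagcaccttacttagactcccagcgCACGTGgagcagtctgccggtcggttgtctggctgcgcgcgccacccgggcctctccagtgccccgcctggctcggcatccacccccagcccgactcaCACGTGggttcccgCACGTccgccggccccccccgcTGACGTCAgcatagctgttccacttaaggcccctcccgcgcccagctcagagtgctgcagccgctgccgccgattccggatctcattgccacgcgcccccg
The FBP1 window holds 0 matches to the letters searched, the PGD window 1 match to ACGTG, and the LDHA window 5 matches to ACGTG and 1 to TGACGTCA. Windows were found for 33 of the 36 members, 59 in all, and 20 of the 59 (33.9%) hold ACGTG on either strand, against 21.4% of all 35116 windows. TGACGTCA is in 1 of the 59 (1.69%), that of LDHA, against 1.85% of all windows. CAGGTG or CACCTG, the E-box form bound by the SNAI1 repressor, is in 9 of the 59 (15.3%), against 20.6% of all windows, and in none of the 3 shown. These are letter matches in fixed windows and give no binding.

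The PFKFB genes encode the bifunctional enzymes that make and remove fructose 2,6-bisphosphate, the strong activator of phosphofructokinase, and TIGAR encodes a phosphatase of the same substrate. PFKFB3, a form in which the kinase activity dominates, led at 17.5, 19.8 and 19.5 FPKM in shNT and 19.9, 18.9 and 18.4 FPKM in shGPR81 (log2 fold change 0.01, limma adjusted p = 0.947). PFKFB4 was at 7.55, 8.62 and 7.92 FPKM in shNT and 9.63, 8.48 and 8.72 FPKM in shGPR81 (0.15, adjusted p = 0.381 in limma). These and PFKFB2 at -0.02 and TIGAR at -0.08 overlapped between the groups. PFKFB1 was under the filter on low values, at 0.14, 0.0 and 0.0 FPKM in shNT and 0.0979, 0.0496 and 0.0495 FPKM in shGPR81.

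In the lower stage, from glyceraldehyde 3-phosphate to pyruvate, the abundant enzymes lay near 0: GAPDH at 0.01, PGK1 at -0.003, PGAM1 at 0.001, ENO1 at -0.04 and PKM at 0.03 in log2 fold change. PGK1, the first ATP-yielding step, was at 493, 506 and 526 FPKM in shNT and at 503, 506 and 513 FPKM in shGPR81, with a 95% interval from -0.11 to 0.11. PKM, the pyruvate kinase of most tissues, was at 887, 999 and 1060 FPKM in shNT and 968, 977 and 1050 FPKM in shGPR81. The annotation names 65 pseudogenes after GAPDH, 13 after PGAM1, 5 after PKM and 4 after ENO1. Outside this stage it names 6 each after LDHA and RPE, 4 after TPI1, 3 each after LDHB and SLC2A3, and fewer or none after the others. How the authors' counting treated reads shared with such copies is not given in the sources used here. The levels of these genes, and isozyme shares drawn from them, are uncertain to that extent. ENO2, the neuronal enolase, was at -0.06. ENO3, the muscle enolase, was at 4.14, 4.38 and 3.97 FPKM in shNT and at 7.16, 5.8 and 4.45 FPKM in shGPR81. Its shGPR81 libraries were all higher but spread widely, and the lowest of them was next to the highest shNT library (log2 fold change 0.44, SE 0.16, 95% interval 0.06 to 0.82, limma adjusted p = 0.189; 0.28 without shGPR81 1). PKLR, the liver and red cell pyruvate kinase, was at 0.103 to 0.226 FPKM in shNT and 0.194 to 0.24 FPKM in shGPR81, and its interval of -0.34 to 0.99 bounds it little.

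For lactate, LDHA, whose enzyme favours the reduction of pyruvate, was at 700, 706 and 756 FPKM in shNT and at 695, 706 and 731 FPKM in shGPR81. The groups overlapped, and the log2 fold change was -0.02 (SE 0.05, 95% interval -0.15 to 0.11, limma adjusted p = 0.891). LDHB, whose enzyme favours the oxidation of lactate, was at 765, 738 and 793 FPKM in shNT and at 807, 802 and 839 FPKM in shGPR81. It did not overlap, but the shift was small (0.09, SE 0.05, 95% interval -0.03 to 0.22, limma adjusted p = 0.403). LDHD, the mitochondrial enzyme for D-lactate, rested on 5, 5 and 4 reads in shNT and on 11, 9 and 4 reads in shGPR81, and the groups overlapped.

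In the pentose phosphate pathway, 5 of the 6 genes had log2 fold changes above 0, with a median of 0.14, and 0 of the 6 passed. The median rested in part on 1 library and was 0.06 without shNT 1, 0.08 without shGPR81 3 and 0.15 to 0.20 without any other library. PGLS opens the lactone of the oxidative arm and was at 56.8, 68.2 and 77.0 FPKM in shNT and 76.7, 70.6 and 86.2 FPKM in shGPR81 (log2 fold change 0.22, SE 0.12, limma adjusted p = 0.388). Without shNT 1 the log2 fold change of PGLS was 0.10. PGD, which makes the second NADPH of that arm, was at 88.8, 97.9 and 103 FPKM in shNT and at 108, 119 and 126 FPKM in shGPR81. The groups did not overlap, the means were 96.6 ± 7.18 and 118 ± 9.05 FPKM (SD, n = 3 each), and the log2 fold change was 0.29 (SE 0.08, 95% interval 0.11 to 0.47, limma adjusted p = 0.0866). TALDO1, the transaldolase of the non-oxidative arm, was at 132, 143 and 154 FPKM in shNT and at 152, 164 and 183 FPKM in shGPR81, the highest shNT library lying just above the lowest of shGPR81 (log2 fold change 0.22, SE 0.08, limma adjusted p = 0.215). TKT, the transketolase, was at 206, 264 and 273 FPKM in shNT and 251, 246 and 270 FPKM in shGPR81 (0.06), and the isomerase RPIA and the epimerase RPE were at 0.003 and -0.06. The summed FPKM of the 6 genes was 531.6 to 651.1 in shNT and 635.1 to 709.6 in shGPR81 (exact permutation p = 0.3).

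The calls on the smaller shifts depended on a correction for GC content, chosen after the data were seen. With each library's trend over transcript GC removed, PGD (log2 fold change 0.29, adjusted p = 0.0251), ALDOC (0.34, 0.0436) and SLC2A3 (-0.22, 0.037) passed in limma beside FBP1 (1.25, 5.26e-05), and 10.2% of all tested genes then passed. PGD also passed after quantile normalization (adjusted p = 0.0317). Their fold changes barely moved, and each stayed under 1.5-fold.

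The members' transcripts have a median GC content of 53.2%, against 47.9% over the tested genes, and their levels moved between libraries of 1 group along with GC. The median deviation of the 34 members from their own mean over the 6 libraries was -0.16, 0.02 and 0.06 on the log2 scale in shNT 1, 2 and 3 and -0.01, -0.02 and 0.07 in shGPR81 1, 2 and 3. Among genes at a mean of 5 FPKM or more, it was, for the 20% with the highest GC content, -0.21, 0.05 and 0.12 in shNT and -0.01, -0.04 and 0.10 in shGPR81, and for the 20% with the lowest GC content the signs were turned in shNT, at 0.10, -0.03 and -0.07. Of the 34 members, 25 were lowest of their group in shNT 1, as were 40.9% of all tested genes, and 22 were highest of theirs in shGPR81 3, as were 37.2% of all tested genes. The part of GC content in the members' spread was not tested beyond the correction above.

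**Figure D4:**
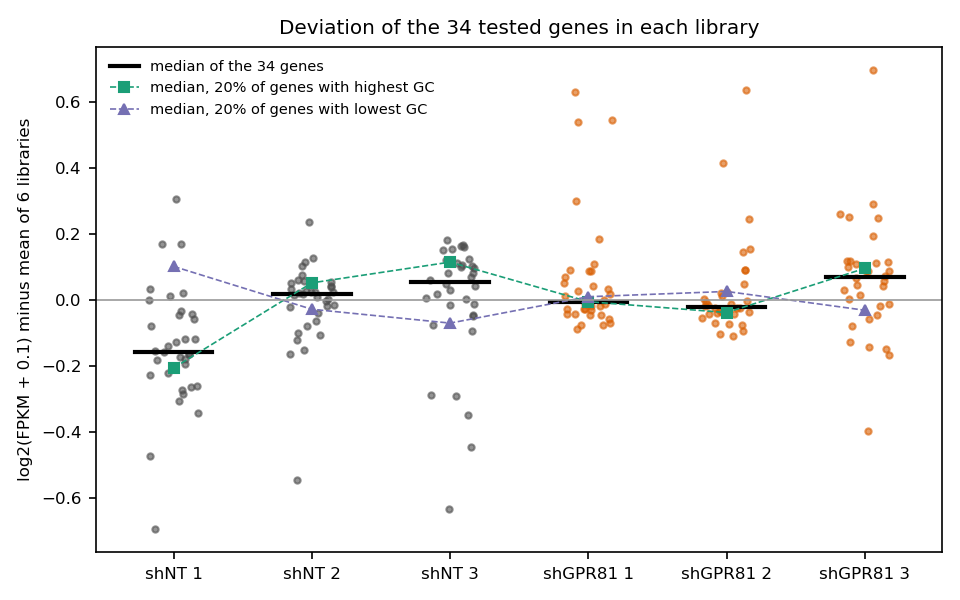
Deviation of each of the 34 tested genes in each library from the gene's mean over the 6 libraries, on log2(FPKM + 0.1), with black lines at the median of the 34, green squares at the median of the 20% of genes (mean of 5 FPKM or more) with the highest GC content and violet triangles at that of the 20% with the lowest. The members' median in shNT 1, at -0.16, lies lowest, on the side of the genes with the highest GC content at -0.21.

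A single scaling factor per library cancels in the share of an isozyme within its step, whereas quantile normalization and the GC correction act gene by gene and can move it. LDHB made up 52.2%, 51.1% and 51.2% of LDHA plus LDHB in shNT and 53.7%, 53.2% and 53.4% in shGPR81, a difference of 1.96 percentage points without overlap (51.5 ± 0.629 and 53.4 ± 0.285, SD, n = 3 each; exact permutation p = 0.1, the smallest possible). ALDOC made up 4.03%, 4.34% and 4.11% of the aldolase FPKM in shNT and 5.07%, 5.23% and 5.20% in shGPR81, again without overlap (p = 0.1, exact permutation test). PFKL took 18.8% ± 0.686 of phosphofructokinase in shNT and 20.3% ± 0.452 in shGPR81, and PFKFB4 took 26.9% ± 0.659 and 28.9% ± 0.841 of the PFKFB genes (SD, n = 3 each). Among the 8 steps with more than 1 isozyme, no share other than these and their complements in aldolase and lactate dehydrogenase separated the groups. HK2 took 24.0%, 22.8% and 22.1% of the hexokinase FPKM in shNT and 23.1%, 21.8% and 21.8% in shGPR81, which overlap. No isozyme took over a step: HK1, PFKP, PFKFB3, ALDOA, ENO1, PKM and SLC2A1 were the major forms in all 6 libraries, and LDHB was ahead of LDHA in all 6.

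**Figure D5:**
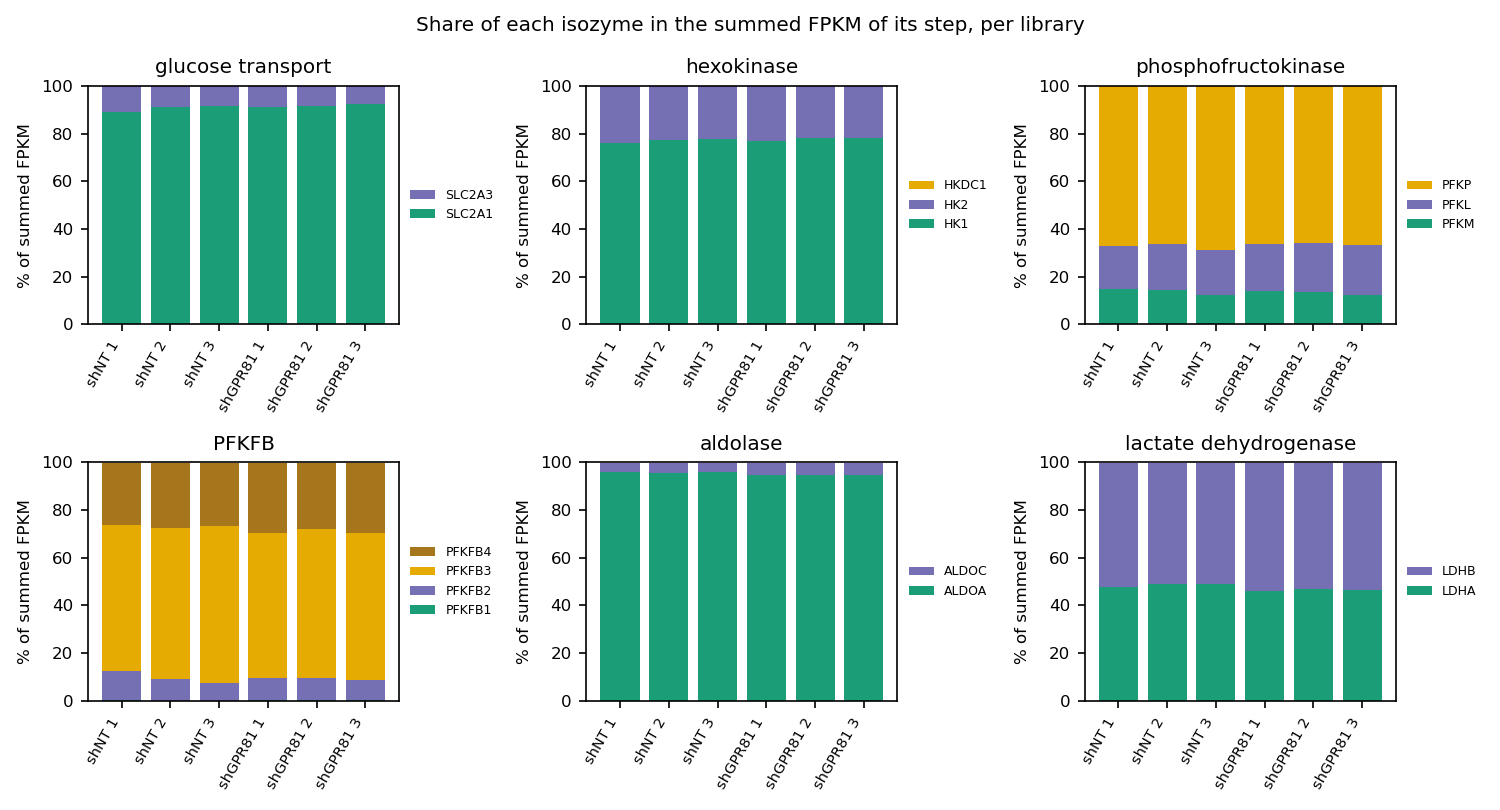
Stacked bars give the share of each isozyme, in percent, in the summed FPKM of its step for each of the 6 libraries, for glucose transport, hexokinase, phosphofructokinase, PFKFB, aldolase and lactate dehydrogenase. The bars differ little between groups; LDHB is at 51.1% to 52.2% in shNT and 53.2% to 53.7% in shGPR81.

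Neighbouring pathway genes were taken from a list of 83 (lactate and pyruvate transport, other transporters and isozymes, gluconeogenesis and glycogen, side branches, and transcription factors known to act on glycolytic genes), of which 59 were tested. At an adjusted p under 0.05, 1 was higher and 2 were lower, where 2.06% of all tested genes were higher and 3.07% were lower. H6PD, which carries out the first oxidative pentose phosphate reactions inside the endoplasmic reticulum, was at 6.26, 6.89 and 6.78 FPKM in shNT and at 10.5, 10.4 and 10.7 FPKM in shGPR81, far apart (log2 fold change 0.66, SE 0.07, limma adjusted p = 0.00264), and it passed without any 1 library. It is the only neighbour past a 1.5-fold change among those that passed. EPAS1 (HIF-2 alpha), a hypoxia-inducible transcription factor, was at 23.3, 25.1 and 24.4 FPKM in shNT and at 17.8, 19 and 18.4 FPKM in shGPR81 (-0.40, SE 0.06, limma adjusted p = 0.00911). It no longer passed without shNT 2 (adjusted p = 0.0564) or without shGPR81 1 (0.0538). PYGB, the brain form of glycogen phosphorylase, was at 82.6, 95.1 and 103 FPKM in shNT and at 68.3, 68.1 and 71.0 FPKM in shGPR81 (-0.43, SE 0.08, limma adjusted p = 0.0251). PYGB did not pass without shNT 2 (adjusted p = 0.109) or without shGPR81 1, 2 or 3 (0.101, 0.103 and 0.0694). It lies on chromosome 20, where the median log2 fold change of 268 genes at 5 FPKM or more was -0.40 and 258 of them lay below 0.

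The lactate exporter SLC16A3 (MCT4) was at 91.3, 117 and 121 FPKM in shNT and at 87.9, 89.2 and 101 FPKM in shGPR81. The lowest shNT library lay among those of shGPR81, and the log2 fold change was -0.23 (SE 0.11, 95% interval -0.50 to 0.03, limma adjusted p = 0.32). After the GC correction it was -0.26 with a limma adjusted p of 0.0145, and the difference stayed under 1.5-fold. The study reported lower MCT4 in its GPR81 hairpin cells by RT-qPCR and by western blot. SLC16A1 (MCT1) rested on 2, 1 and 1 reads in shNT and 2, 1 and 0 in shGPR81, so no difference was detectable at this depth.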

How the data were processed

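The study's methods and labels describe TruSeq stranded mRNA libraries, read on an Illumina HiSeq instrument in single-end mode at 75 bases. Per the submitters' processing notes, TopHat2 2.0.13, Bowtie2 2.2.3, SAMtools 0.1.19 and Cuffnorm 2.2.1 were used. The deposited description names a mouse genome build, whereas the study's methods name the human build GRCh37, and the cells are human. The authors' deposited values are FPKM, 1 per symbol and library, and the annotation used is not given in the sources used here.

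FPKM were compared as log2(FPKM + 0.1) with limma 3.58.1 (lmFit, eBayes with trend) in R 4.3.3 over all 14349 genes that reached 0.1 FPKM in 3 or more of the libraries, with Benjamini-Hochberg adjustment. A fold change on this scale understates the change of low genes. Calls needed an adjusted p below 0.05 together with a change of more than 1.5-fold. The fit was first tested on simulated data. Single values were compared with exact two-sided permutation tests in scipy 1.17.1, whose smallest p is 0.1. Whole reads behind low values were recovered from the steps between FPKM values, within 0.0001 of a whole read count in relative terms, for 3878 of 15931 genes above 0 in at least 3 libraries, and depth was estimated from them. Libraries of 1 group differed by more than sampling noise over those genes (chi-square per gene 1.69 to 2.68). Loci and GC content are from GENCODE release 44 on GRCh37, with 23773 of 26255 symbols matched. The members, the neighbouring genes and the markers were chosen with earlier results of these data known. The text names every member, HCAR1, neighbouring genes at an adjusted p under 0.05 and the lactate transporters SLC16A1 and SLC16A3. Alternatives were pseudocounts, filters, scalings, a replicate block, other limma settings, leaving out each library and, added after the data were seen, a GC correction.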

Additional observations from a re-analysis of the deposited data

How the results depend on the processing

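The median log2 fold change of the members ran from -0.039 to 0.077 when 1 library was left out. FBP1 was higher under all 18 alternative settings, at log2 fold changes from 1.18 to 1.29 and limma adjusted p from 5.26e-05 to 0.0054. Of the members, 17 changed sign under at least 1 of 18 settings. Their log2 fold changes were at most 0.062 in size as reported and at most 0.15 in size after the change, and none was called. The count of members at an adjusted p under 0.05 was 2 higher with quantile normalization and 2 higher with the replicate number as a block (PGD beside FBP1), 1 lower and 3 higher with the GC correction, and 1 lower and 5 higher with the GC correction and the block together, which added TALDO1 (limma adjusted p = 0.0353) and PGLS (0.0287). With the GC correction, 10.2% of all tested genes passed that threshold. The shares under the other settings were not counted, so nothing is drawn from these counts or those of the neighbouring genes below. The labels do not say that same-numbered libraries were paired. Their deviations correlated at 0.12, 0.022 and 0.006 across genes, against -0.103 to 0.083 for libraries with unlike numbers. These values cannot settle whether replicate numbers mark pairs, so the block is given as an alternative only. For the neighbouring genes, the count was 3 higher without a filter on low values, 1 lower without the trend in limma, 0 lower and 0 higher with limma's treat against a 1.5-fold change, and 4 lower and 5 higher with the GC correction, with or without the block; leaving out 1 library gave 0 to 4 lower and 1 to 3 higher. Over all tested genes, 142 lower and 75 higher were called with a pseudocount of 1 and 46 lower and 9 higher with treat, and leaving out 1 library gave 110 to 238 lower and 68 to 156 higher. For these differences the cause was not tested. Depth limits HKDC1, LDHD and SLC16A1, which rest on 0 to 11 reads per library.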

Other observations

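The tested genes within 2 Mb on either side of FBP1 on chromosome 9 were looked at after FBP1 was seen to be called. Of the 27, 22 had log2 fold changes above 0 and 5 below 0, with a median of 0.14 and a range from -0.60 (FGD3, at 0.109 to 0.37 FPKM) to 1.09 (HSD17B3, at 0.0 to 0.444 FPKM), and 0 passed an adjusted p of 0.05 in limma. PCAT7, which overlaps the end of FBP1 on the opposite strand, was at 0.998, 0.816 and 0.558 FPKM in shNT and at 1.13, 0.44 and 1.23 FPKM in shGPR81. Across the 358 genes of chromosome 9 at a mean of 5 FPKM or more, the median log2 fold change was 0.10, and 89 of them lay below 0.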
